A study of Mus musculus with 3 samples.

Results

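The mRNAs and other transcripts described here come from the genes of the glycolytic enzymes and from Psat1, the phosphoserine aminotransferase of serine synthesis. They were chosen by gene symbol alone, as all transcripts listed for Psat1 or for a named glycolytic enzyme in either of 2 deposited tables of RNA immunoprecipitation sequencing (RIP-seq). The choice covered 22 genes. Of these, 14 had a listed transcript, among 8547 gene symbols listed in all. They had 27 distinct transcripts, out of 13595 listed in either table.

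The cells were of the mouse embryonic stem cell line CCE, grown without feeder cells in serum medium with leukemia inhibitory factor and given no treatment. There were 3 libraries of nuclear RNA, which were RNA bound by the methyltransferase Mettl3 (Mettl3 RIP), RNA bound by the zinc finger protein Zfp217 (Zfp217 RIP), and the input that both RIPs were set against. The question was which nuclear RNAs each protein was bound to. Each group had 1 library, so no p-value was computed, and each ratio compares 2 libraries rather than conditions. No mock immunoprecipitation entered the comparisons, so RNA that sticks to beads or to any antibody was not analysed here.

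Glycolysis turns glucose into pyruvate in the cytosol, and lactate dehydrogenase turns pyruvate into lactate. Hexokinase and phosphofructokinase catalyse steps that are in practice irreversible. Serine synthesis leaves this pathway at 3-phosphoglycerate, and Psat1 catalyses the second step of that branch, between Phgdh and Psph. Mettl3 is the catalytic subunit of the complex that places N6-methyladenosine (m6A) on mRNA, and Zfp217 acts in chromatin complexes with corepressors. Embryonic stem cells are known for a high rate of glycolysis.

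Each table gave FPKM (fragments per kilobase, scaled to the mapped fragments of the library) for single Ensembl transcripts, and each held only transcripts with at least 1 FPKM in the RIP and at least 1.5 times the input. A transcript that was not listed may therefore have been low, or not higher in the RIP, and every listed one was higher in the RIP by construction. The depth, estimated from the step that 1 read makes in the FPKM of low transcripts, was 9775000 scaled fragments for the Mettl3 RIP, 7050000 for the Zfp217 RIP, and 6150000 and 6075000 for the input in the Mettl3 and Zfp217 tables. Reads given below are such estimates. The 95% intervals beside them are computed from these estimates, so they are approximate, and they cover counting error only. Of 10 stem cell markers, 7 were listed in each table, none of 6 early differentiation markers was listed in either, and of 5 fibroblast markers only Vim was.

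The Mettl3 table listed 18 transcripts of 11 of the 22 genes, and the other table listed 19 transcripts of 12 genes for Zfp217. Both listed 9 genes: Hk1, Pfkl, Pfkm, Pfkp, Aldoa, Gapdh, Eno1, Ldha and Psat1. Hk2 and Pgam1 were listed for Mettl3 only, and Gpi1 and Pgam2 were among those listed for Zfp217 only. No transcript of Hk3, Aldoc, Tpi1, Pgk1, Eno2, Eno3, Pkm or Ldhb was listed in either table. The annotation (GENCODE M21 on GRCm38) holds 190 transcripts of the 22 genes, of which the 27 listed ones were 14.2%. Shared between the antibodies were 10 transcripts, which was 55.6% of these genes' transcripts in the Mettl3 table and 52.6% in the Zfp217 table. Over all genes, 4026 transcripts were shared, 42.4% of those listed for Mettl3 and 49.6% of those for Zfp217. The tables share the input library.

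Transcripts that the tables class as retained intron, which keep intron sequence and are not translated into the enzyme, made up 7 of the 18 Mettl3 entries (38.9%) and 8 of the 19 Zfp217 entries (42.1%). Over all listed transcripts retained introns accounted for 11.4% of Mettl3 transcripts and 14.0% of those for Zfp217. Of these genes' entries, 9 and 8 were protein-coding. The other entries, 2 for Mettl3 and 3 for Zfp217, were classed as processed transcripts. The sequences of 4 transcripts classed as retained intron and listed in both tables are shown where the intron runs into the next coding exon. Lower case is the retained intron and capitals are the exon, in the direction of transcription, from the GENCODE M21 transcripts.

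Psat1-204, chr19:15909400-15909459, minus strand: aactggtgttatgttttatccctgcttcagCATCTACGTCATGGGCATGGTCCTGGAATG
Gapdh-206, chr6:125162364-125162423, minus strand: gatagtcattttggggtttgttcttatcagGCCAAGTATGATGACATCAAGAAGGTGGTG
Aldoa-206, chr7:126797747-126797806, minus strand: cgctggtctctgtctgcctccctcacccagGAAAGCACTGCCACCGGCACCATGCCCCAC
Eno1-207, chr4:150247801-150247860, plus strand: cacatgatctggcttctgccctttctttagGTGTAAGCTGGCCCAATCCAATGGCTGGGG

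In each of these 4 the intron ends in ag, the usual end of an intron at a splice acceptor. The annotated transcript runs through this acceptor. All capitals are bases of the coding sequence of an mRNA of the same gene. Coordinates are those of GRCm38, and none was taken from the deposited tables, which hold transcript identifiers only.

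Among the 7 Mettl3 entries with an input of at least 0.01 FPKM, Psat1 had the highest ratio of RIP over input. Among the 8 such Zfp217 entries, Hk1-201 and Ldha-207 had higher ratios, but their intervals overlapped that of Psat1. The other entries are given no ratio and are not part of this ranking. The retained-intron transcript of Psat1, Psat1-204 (ENSMUST00000161707), was at 44.4 FPKM in the Mettl3 RIP and 1.94 FPKM in the input. It was 22.9-fold higher in the RIP (interval 14.2 to 39.6). In the Zfp217 table it was at 7.17 FPKM in the RIP and 1.97 FPKM in the input, 3.65-fold higher (2.12 to 6.58). These values came from about 622 reads in the Mettl3 RIP, 72.4 in the Zfp217 RIP and 17.1 in the input. By plain ratio it ranked 3 among the 3725 Mettl3 transcripts whose RIP and input reached 1 FPKM, and 122 among 2511 such Zfp217 transcripts. It was the only Psat1 transcript listed, out of 7 annotated, and the full-length coding mRNA Psat1-201 was listed in neither table.

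Psat1-204 lies on chromosome 19 from 15905130 to 15909712 on the minus strand, in 3 exons with 1572 bases. It starts inside intron 6 of Psat1-201, which has 9 exons, and keeps 283 bases of that intron before exon 7. The rest, 1289 bases, is exons 7 and 8 and 1022 bases of the last exon of the coding mRNA. By the coding mRNAs of the gene, 370 bases are coding and 919 untranslated. Therefore 82.0% of Psat1-204 is shared with other Psat1 transcripts, and fragments from that portion fit both this transcript and the coding mRNA. How the authors' software divided them was not tested.

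**Figure D1:**
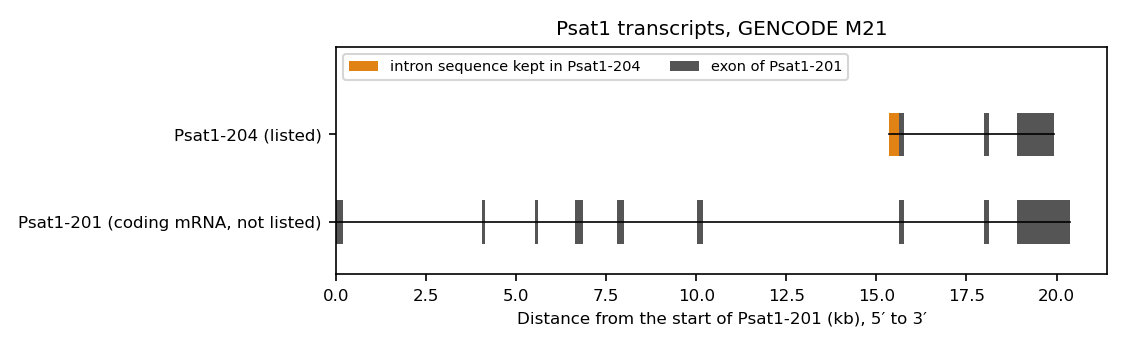
Exons of Psat1-204 and of the coding mRNA Psat1-201 against the distance from the start of Psat1-201 in kb. Psat1-204 has 3 exons, and the part in orange is the 283 bases of intron 6 that it keeps; all other parts coincide with exons 7 to 9 of the mRNA.

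The letters GGACT, a common form of the sequence at which the Mettl3 complex methylates adenosine, occur at 1 place in Psat1-204, at base 953, in the untranslated region after the stop codon. That stretch is shown with the motif in capitals.

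Psat1-204, chr19:15905733-15905761, minus strand: ccttctctaggtGGACTgccttgggcttt

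The search covered the transcript strand only. Among listed transcripts within 10% of its length, 80.8% of 557 held GGACT, with a median of 2 places. Of the 27 transcripts described here 18 held it (66.7%), and of all 12054 listed transcripts found in the annotation 75.5% did. Its density was 1.03 per kb in the 27 and 1.05 per kb in all listed transcripts. The counts therefore do not set these genes apart, and a match is not a methylated site.

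By the rule of likeness, no retained-intron transcript came near the pair of Psat1 ratios. Among the 59 other such transcripts with both values at least 1 FPKM in both tables, the nearest on the log2 scale was that of Khdrbs1, an RNA-binding protein, at a distance of 2.06. It was 6.30-fold higher in the Mettl3 RIP and 1.97-fold in the Zfp217 RIP. Transcripts of Acin1, Rpap1, Npepps and Ikbkap followed, at distances up to 2.25, with Mettl3 ratios of 5.05 to 8.17.

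Hexokinases, which phosphorylate glucose, were listed through 1 transcript each of Hk1 and Hk2. The coding transcript Hk1-201 (ENSMUST00000072357) was at 2.29 FPKM in the Mettl3 RIP against 0.578 in the input, 3.95-fold higher (2.21 to 8.24). It was at 3.28 FPKM in the Zfp217 RIP against 0.585 in the input, 5.62-fold higher (3.15 to 11.7). Both intervals lay above 1, though listing alone already required a ratio of at least 1.5. About 78.2 and 81.0 reads stood behind the 2 RIP values, and about 12.4 behind the input that both share. Hk1-201 spans chromosome 10 from 62269108 to 62358362 on the minus strand, and all of its 3639 bases are shared with others of the 20 annotated Hk1 transcripts. Hk2-202 (ENSMUST00000168725), classed as a processed transcript, was at 13.7 FPKM in the Mettl3 RIP and 8.58 FPKM in the input. The ratio of 1.59 had an interval that includes 1, at 0.971 to 2.65. All 594 bases of Hk2-202 lie in the untranslated region of the Hk2 mRNA.

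Gpi1, which converts glucose-6-phosphate to fructose-6-phosphate, was listed for Zfp217 alone, at low depth. Gpi1-204 was at 2.02 FPKM in the Zfp217 RIP, about 3.98 reads, with the input listed at 0. Gpi1-202 was at 1.05 FPKM, about 2.90 reads, and the input was again listed at 0. Read numbers this low leave both levels imprecise, and no ratio is given.

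Phosphofructokinase, the main point of control of the pathway, was represented by all of its 3 genes. The muscle type Pfkm was listed through the coding transcript Pfkm-201, at 3.07 FPKM in the Mettl3 RIP (interval 2.44 to 3.80) and 3.55 FPKM in the Zfp217 RIP (2.73 to 4.46), with the input listed at 0 in both tables. The RIP levels of Pfkm did not differ beyond counting error. The liver type Pfkl was listed through a 583-base transcript, Pfkl-202, classed as processed in the tables and as coding in M21. It was at 4.64 FPKM in the Mettl3 RIP and 1.02 FPKM in the Zfp217 RIP, with inputs of 0.00689 and 0.00800 FPKM, which are below the value of 1 read.

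The platelet type Pfkp had the most distinct transcripts of the 22 genes, 5 of 13 annotated. Its long coding transcript Pfkp-207 (ENSMUST00000138703, 4145 bases, chromosome 13 from 6579768 to 6648777, minus strand) was at 7.43 FPKM in the Zfp217 RIP and 4.60 FPKM in the input. That is 1.61-fold higher (1.28 to 2.05), from about 209.8 and 111.9 reads. The short coding transcript Pfkp-205 was at 1.48 FPKM in the Mettl3 RIP and 5.43 FPKM in the Zfp217 RIP, with the input listed at 0. Retained-intron transcripts of Pfkp differed between the tables. Pfkp-210 was at 4.54 FPKM in the Zfp217 RIP and 1.73 FPKM in the input (2.63-fold, 0.974 to 7.89). Pfkp-208 was at 2.79 FPKM in the Zfp217 RIP and 1.45 FPKM in the input (1.92-fold, 0.704 to 5.32). For Mettl3 the table listed Pfkp-211 instead, at 1.45 FPKM, with the input listed at 0. The intervals of both Zfp217 ratios include 1.

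Aldolase, which splits fructose-1,6-bisphosphate, was listed through 4 transcripts of Aldoa, the form of muscle and most other tissues. Aldoa-206, a retained-intron transcript, was at 1.66 FPKM in the Mettl3 RIP against 1.07 in the input (1.55-fold, 0.661 to 4.11). It was at 2.68 FPKM in the Zfp217 RIP against 1.08 in the input (2.48-fold, 1.07 to 6.38). Only the Zfp217 interval lay above 1, and the difference between the antibodies was within counting error. The coding transcript Aldoa-202 was at 1.36 FPKM in the Mettl3 RIP and 5.28 FPKM in the Zfp217 RIP, with the input listed at 0. For Mettl3 the table also held Aldoa-207 (1.38 FPKM) and Aldoa-208 (1.28 FPKM), both with the input listed at 0.

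Gapdh, the dehydrogenase of glyceraldehyde-3-phosphate, was listed through 2 of its 13 annotated transcripts. The coding transcript Gapdh-201 was at 5.03 FPKM in the Mettl3 RIP (3.82 to 6.57) and 5.28 FPKM in the Zfp217 RIP (3.79 to 7.11), and the input was listed at 0. The retained-intron transcript Gapdh-206 was at 1.68 FPKM in the Mettl3 RIP against 0.772 in the input, and at 1.95 FPKM in the Zfp217 RIP against 0.780 in the input. Its ratios of 2.18 (0.414 to 21.5) and 2.49 (0.457 to 25.9) rested on about 2.00 and 1.99 input reads. Every base of both transcripts is shared with other Gapdh transcripts. Moreover, stretches of at least 100 bases at 95% identity or more occur in 79 other annotated genes for Gapdh-201 and in 110 for Gapdh-206. Gapdh values are uncertain for this reason, and an input of 0 FPKM for a gene that all cells use says only how the table lists this transcript.

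Pgam1, the phosphoglycerate mutase of most tissues, had the highest level. Pgam1-201 (ENSMUST00000011896, chromosome 19 from 41911923 to 41918660, plus strand) was at 99.8 FPKM in the Mettl3 RIP and 65.0 FPKM in the input. It was 1.53-fold higher (1.40 to 1.68), just inside the authors' limit of 1.5-fold, from about 1595 and 652 reads. Pgam1 was the most precisely measured member, and the lower end of its interval is below the listing limit. Pgam1 was not listed for Zfp217. The muscle form Pgam2, a gene with 1 annotated transcript, was at 1.01 FPKM in the Zfp217 RIP, about 4.98 reads, with the input listed at 0.

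Enolase was listed through short transcripts of Eno1, the form found in most tissues, and Eno1-207 was the highest of them. This retained-intron transcript of 578 bases was at 2.73 FPKM in the Mettl3 RIP (1.45 to 4.89) and 6.36 FPKM in the Zfp217 RIP (3.95 to 9.99), with the input listed at 0. Eno1-204 was at 1.10 FPKM in the Mettl3 RIP against 0.570 in the input, a ratio of 1.93, and its interval ran from 0.245 to 122, as only about 1.17 input reads stood behind it. Eno1-208 (2.52 FPKM in the Mettl3 RIP) and Eno1-206 (1.35 FPKM in the Zfp217 RIP) had the input listed at 0. No listed Eno1 transcript was a full-length mRNA in either table: the longest had 686 bases. Each listed Eno1 transcript matched 3 or 4 other annotated genes over at least 100 bases.

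Ldha, the lactate dehydrogenase subunit that favours lactate formation, was listed with different transcripts in the 2 tables. Ldha-201, a coding transcript, was at 1.04 FPKM in the Mettl3 RIP with the input listed at 0. Ldha-207, classed as processed in the tables and as coding in M21, was at 1.84 FPKM in the Zfp217 RIP against 0.422 FPKM in the input. Its ratio of 4.37 had an interval of 0.620 to 235, since the input held about 1.11 reads. Ldha-201 was near the lowest level listed, 1 FPKM. Each listed Ldha transcript matched 5 other annotated genes over at least 100 bases. All 1766 bases of Ldha-201 are shared with other Ldha transcripts.

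**Figure D2:**
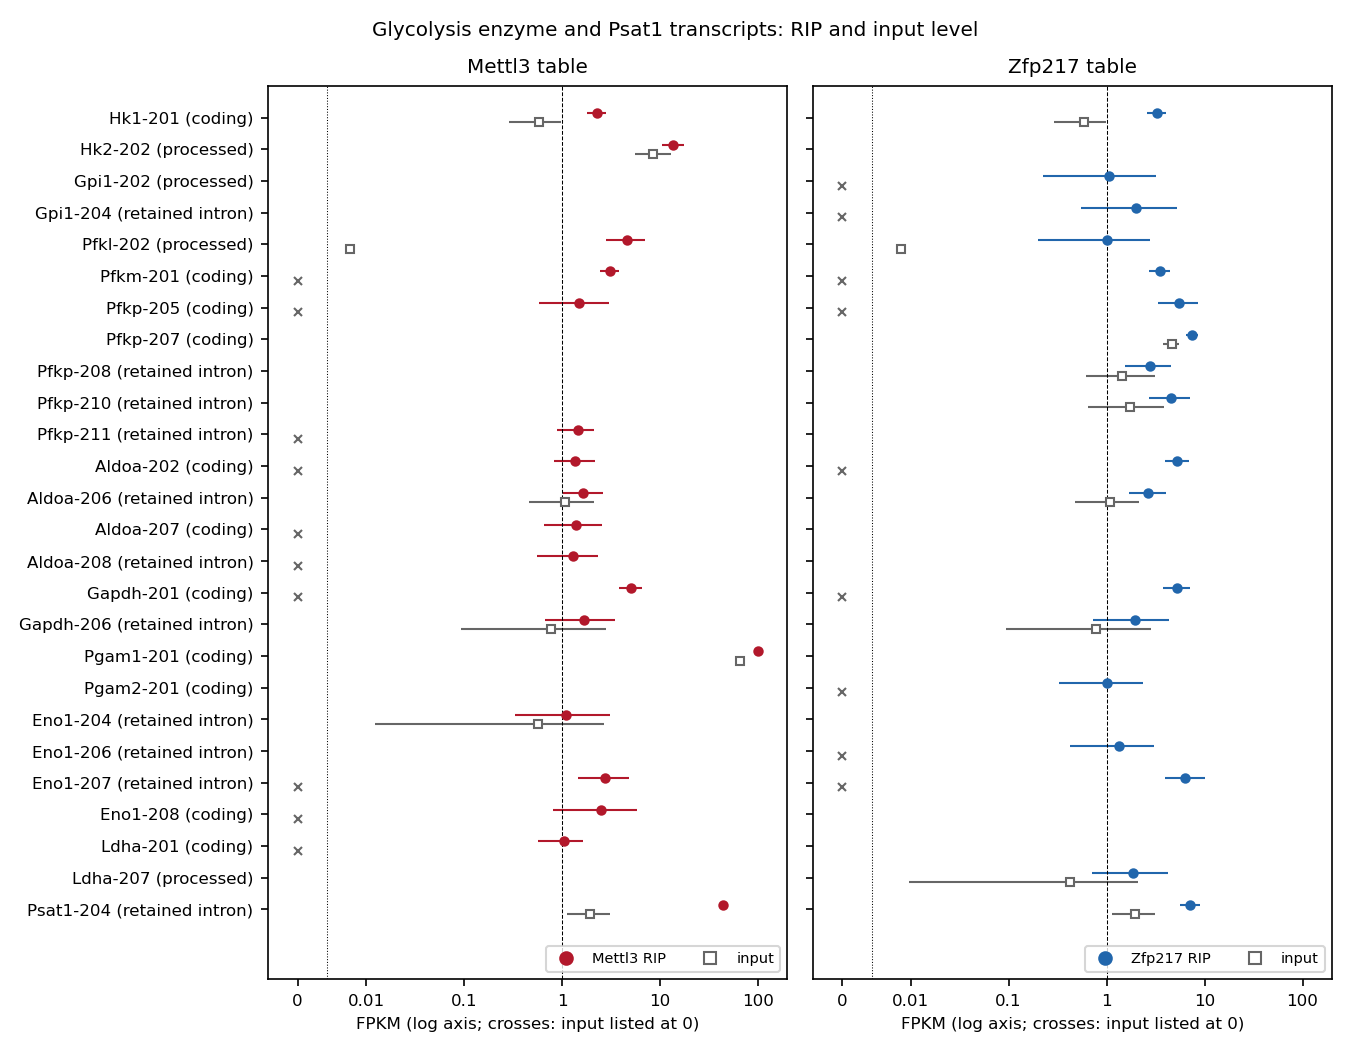
FPKM of the listed transcripts described by name on a log axis in the Mettl3 table (left) and the Zfp217 table (right), with filled circles for the RIP, open squares for the input, crosses for an input listed at 0, and bars for the 95% counting interval. Most RIP values lie between 1 and 10 FPKM. Pgam1-201 at 99.8, Psat1-204 at 44.4 and Hk2-202 at 13.7 FPKM in the Mettl3 RIP lie above them.

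The RIP level of these genes had a median of 1.98 FPKM in the Mettl3 table (lowest 1.04, highest 99.8) and 2.79 FPKM in the Zfp217 table (1.01 to 7.43). The medians of all listed transcripts were 2.66 and 2.25 FPKM. The input was listed at 0 for 10 of the 18 Mettl3 entries and 10 of the 19 Zfp217 entries, and under 0.01 FPKM for Pfkl in both. Together these were 61.1% and 57.9% of the entries, against 35.8% and 44.2% of all listed transcripts. For the 10 at 0 in the Mettl3 table the RIP value was 1.04 to 5.03 FPKM, and for the 10 at 0 for Zfp217 it was 1.01 to 6.36 FPKM. Of the 27 transcripts, 26 belong to genes with several annotated transcripts, and 7 share all their bases with other transcripts of their gene.

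As a rule of size, a transcript counted as at least 2-fold higher on log2(FPKM + 1), among those with a mean of RIP and input of at least 1 FPKM. In the Mettl3 RIP 11 of the 18 entries met the level limit and 7 of them the rule, against 51.1% of all transcripts that met the limit. In the Zfp217 RIP 14 of 19 met the limit and 10 the rule, against 49.1%. However, 5 of the 7 and 6 of the 10 had an input at 0 or under 0.01 FPKM, where meeting the level limit already means meeting the rule. Without such inputs the counts were 2 of 6 for Mettl3, Psat1-204 and Hk1-201, against 37.6% of all. For Zfp217 they were 4 of 8, with Psat1-204, Hk1-201, Pfkp-210 and Ldha-207, against 28.4%. The median log2 ratio of these entries was 0.61 for Mettl3 and 0.91 for Zfp217, against 0.86 and 0.74 over all transcripts of the same kind. On numbers this small, the shares do not set the genes apart from the tables as wholes.

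Where the input was at least 0.01 FPKM, the plain ratio was 1.53 to 22.9 with a median of 1.93 over 7 Mettl3 entries, and 1.61 to 5.62 with a median of 2.56 over 8 Zfp217 entries. The counting interval lay above 1 for 3 of the 7, which were Psat1-204, Hk1-201 and Pgam1-201, against 80.7% of all 5368 Mettl3 transcripts of at least 300 bases with such an input. It lay above 1 for 4 of the 8, which were Psat1-204, Hk1-201, Aldoa-206 and Pfkp-207, against 67.7% of 3960 for Zfp217. All of these transcripts were already at least 1.5-fold higher by selection. Where RIP and input both reached 1 FPKM, 1 of 4 Mettl3 entries was at least 2-fold higher by plain ratio, against 54.3% of all such transcripts, and 3 of 5 Zfp217 entries, against 39.3%.

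**Figure D3:**
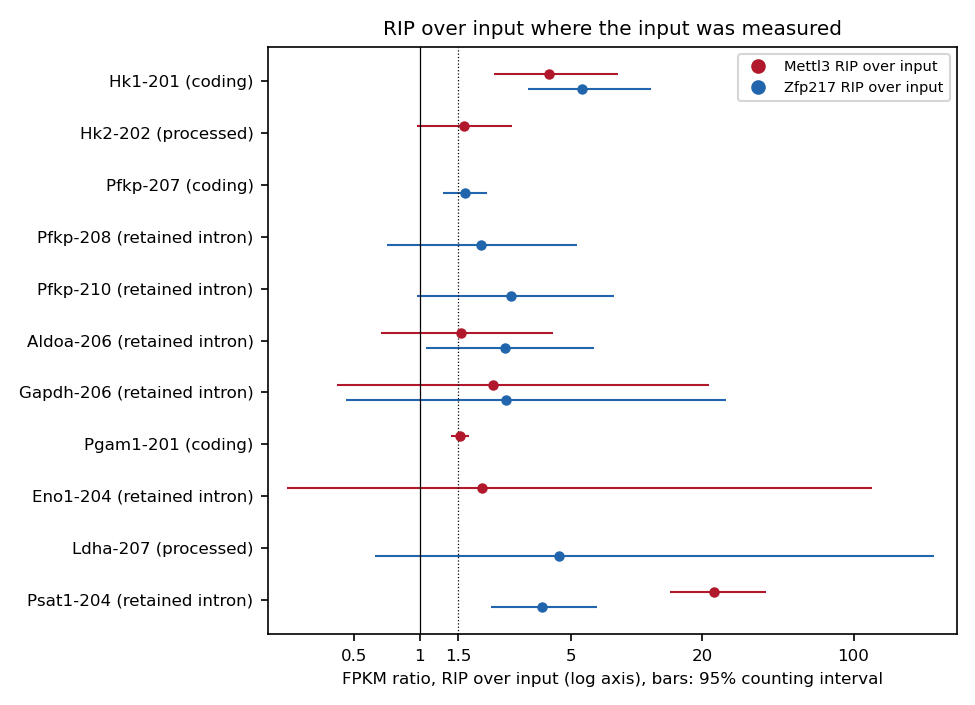
Plain FPKM ratio of RIP over input on a log axis for each transcript with an input of at least 0.01 FPKM, with red for Mettl3, blue for Zfp217 and bars for the 95% counting interval; the dotted line is the 1.5-fold limit of the tables. Psat1-204 at 22.9-fold in the Mettl3 RIP stands apart, and the intervals of Eno1-204 and Ldha-207 are the widest.

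The RIP levels of the 10 transcripts listed in both tables were set side by side. The tables were normalised separately, and the median input value for Mettl3 was 0.989 times that for Zfp217 over 2813 transcripts. Psat1-204 was 6.20 times as high in the Mettl3 RIP as in the Zfp217 RIP (interval 4.87 to 8.07). Pfkl-202 was 4.57 times as high (1.42 to 25.2, from about 20.1 and 3.18 reads). Thus 2 of the 10 were higher in the Mettl3 RIP, against 56.8% of all 3446 transcripts of at least 300 bases in both tables. The other 8 were lower in the Mettl3 RIP, against 43.2% of all. The interval lay below 1 for 4 of the 10, against 11.4% of all, and above 1 for 2 of the 10, against 23.6%. The 4 were Aldoa-202 at 0.257 times (0.147 to 0.453), Pfkp-205 at 0.274 times (0.0943 to 0.660), Eno1-207 at 0.430 times (0.193 to 0.929) and Hk1-201 at 0.696 times (0.502 to 0.960). Over all of those 3446 transcripts the median was 1.07, with quartiles of 0.798 and 1.44. Of these, 11 were at or above the 6.20 of Psat1-204, itself included. All bases of Aldoa-202 and Hk1-201 are shared with other transcripts of their gene, as are 80.1% of Pfkp-205 and 69.2% of Eno1-207. The 2 transcripts higher in the Mettl3 RIP, Psat1-204 and Pfkl-202, share 82.0% and 86.4%. Such ratios also depend on how fragments were divided among transcripts, which was not tested. Aldoa-202, Pfkp-205 and Eno1-207 had the input listed at 0 in both tables, so for them no plain ratio of RIP over input is given.

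**Figure D4:**
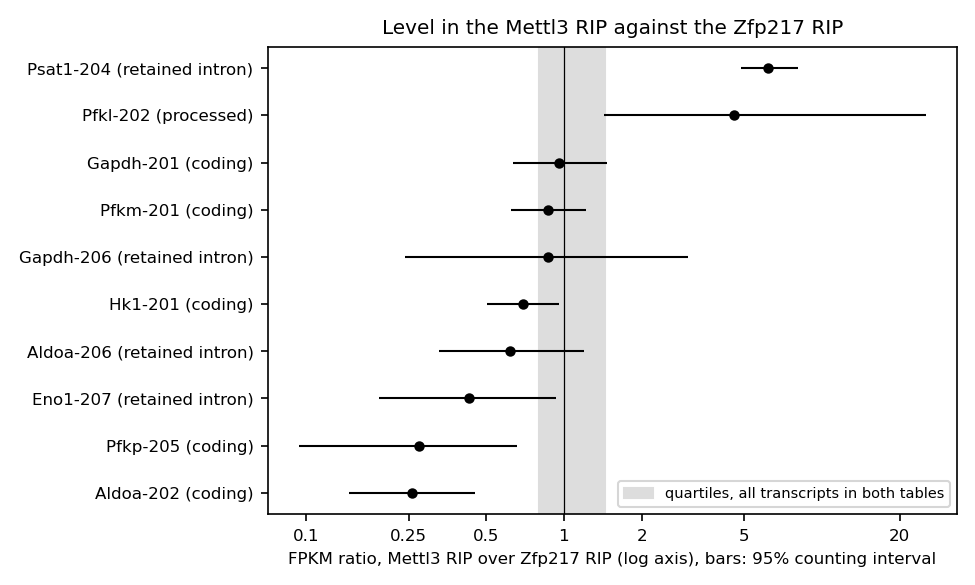
FPKM ratio of the Mettl3 RIP over the Zfp217 RIP on a log axis for the 10 transcripts in both tables, with 95% counting intervals. The grey band runs between the quartiles, 0.798 and 1.44, of all transcripts of at least 300 bases in both tables. Psat1-204 and Pfkl-202 lie above the line at 1, and the other 8 lie below it.

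The 15 distinct transcripts of noncoding class, 11 retained-intron and 4 processed, had 419 to 1726 bases. The share of their bases outside every exon of the other coding mRNAs of the gene was 28.0% at the median, and it varied widely between transcripts. Such bases were most of Pfkp-208 and Pfkp-210, at 65.6% and 63.2%. In Psat1-204 it was 18.0%, in Gapdh-206 14.9% (84 bases) and in Hk2-202 0%. Hk2-202 is a processed transcript, whereas retained-intron transcripts ran from 10.8% in Aldoa-208 to 65.6% in Pfkp-208, with 18.1% in Pfkp-211. The name of the retained-intron class thus says little about how large this share is. Pfkl-202 and Ldha-207, at 13.6% and 35.4%, are classed as coding in M21, but their own exons were not counted. Counting these exons would lower both shares and the median. Guanine and cytosine made up 46.0% of Psat1-204 and 55.1% at the median of the 27.

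**Figure D5:**
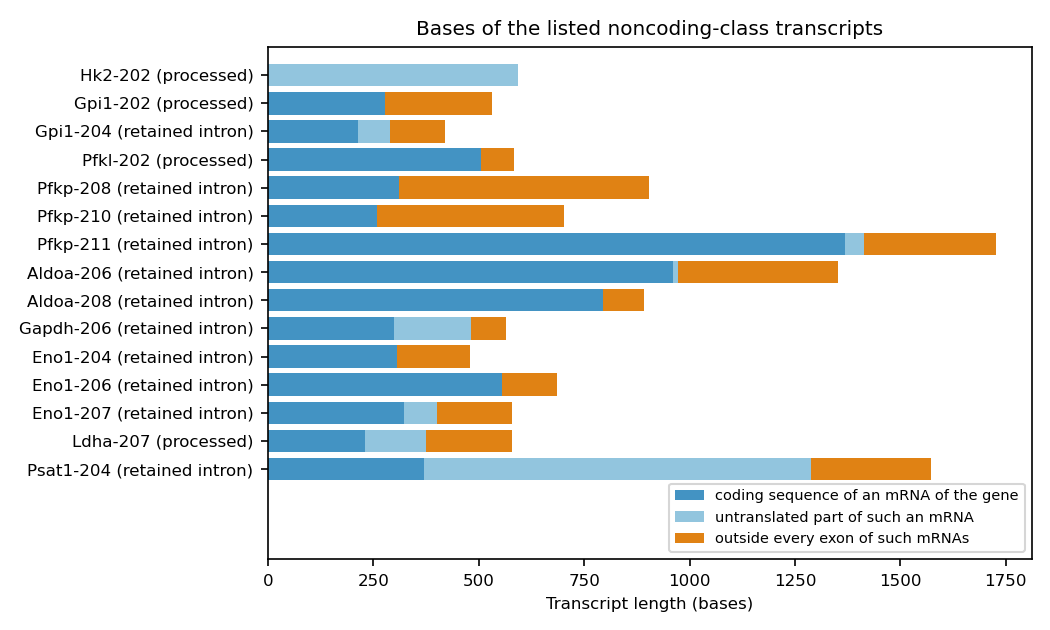
Length in bases of each listed transcript of noncoding class, divided by the other coding mRNAs of the same gene. Bases are coding or untranslated in such an mRNA, or outside every exon of such mRNAs (orange). Pfkl-202 and Ldha-207 are classed as coding in M21, and their own exons were not counted. Pfkp-208 and Pfkp-210 are mostly orange, and the 919 untranslated bases of Psat1-204 are its largest part.

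Serine synthesis and one-carbon metabolism, the pathways around Psat1, had 11 of 21 genes listed in each table. At the level limit, 1 of 10 Mettl3 transcripts was at least 2-fold higher, a nonsense-mediated decay transcript of the thymidylate synthase Tyms, at 3.31 FPKM against an input of 0.431 FPKM. In the Zfp217 RIP 3 of 10 were at least 2-fold higher. All of these had a measured input, and the shares over all such transcripts were 37.6% for Mettl3 and 28.4% for Zfp217. The partners of Psat1 in the branch, named for their place in it after their values were seen, were listed too. Psph, which completes serine synthesis, was at 1.62 FPKM in the Mettl3 RIP against 0.676 in the input (2.39-fold). In the Zfp217 RIP it was at 3.55 FPKM against 0.684 in the input (5.19-fold). No interval is given for these Psph ratios, whose inputs were below 1 FPKM. Phgdh, which opens the branch, was listed at 1.30 FPKM in the Mettl3 RIP for a coding transcript, with the input at 0. For Zfp217 the same Phgdh transcript was at 1.06 FPKM and a retained-intron one just above the listing limit, with inputs of 0.

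Among the transcripts of that list with both values at least 1 FPKM, the highest plain Mettl3 ratio was 2.56-fold for Mat2b, a regulator of methionine adenosyltransferase. The lowest were 1.51-fold for the same Ahcy transcript that led for Zfp217, whose enzyme hydrolyses S-adenosylhomocysteine, and 1.59-fold for a retained-intron transcript of Tyms. In the Zfp217 RIP that retained-intron transcript of Ahcy was highest at 3.74-fold (6.83 FPKM in the RIP, 1.83 in the input), then Dld, a subunit of the glycine cleavage system, at 2.75-fold. Cbs at 1.52-fold and Shmt2, the mitochondrial serine hydroxymethyltransferase, at 1.63-fold were lowest. Ahcy thus had its ratio at opposite ends of the list in the 2 RIPs, a difference that was not tested.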

How the data were processed

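For each antibody the authors deposited FPKM of RIP and input per Ensembl transcript and a log2 ratio of RIP over input. That deposited log2 ratio matched the log2 ratio of the FPKM values within 0.00466 and was used for this check only. CASAVA 1.4, Bowtie2, TopHat2 2.0.8, Cufflinks, Cuffdiff and mm9 are named per the submitters' processing notes; what each was used for is not stated there.

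Groups came from the sample titles and antibody labels. Ratios were taken within a table, plain or as log2((RIP + 1)/(input + 1)), which understates the ratio of low transcripts; the level limit was a mean of 1 FPKM. No ratio is given for inputs under 0.01 FPKM. The scaled fragment number was the one, with the fragment length, that made most FPKM values of single-transcript genes whole reads, within 0.05 reads: 81.2% of 176 for the Mettl3 RIP, 84.1% of 208 for the Zfp217 RIP, and 85.2% of 115 and 84.7% of 98 for the input. Intervals are by the exact Poisson method for levels and by Clopper-Pearson for ratios, at 95%. They are approximate here, as they use estimated reads rounded to whole numbers. They leave out how reads were divided among transcripts.

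Transcript lengths, exons and sequences are from GENCODE M21 (GRCm38), matched by identifier for all 27 transcripts; the authors' annotation may differ. Copies in other genes were sought with blastn 2.17.0 at 95% identity over 100 bases. The rule named all listed transcripts of the 22 genes, up to 4 per neighbouring list, and the 5 most like Psat1. Some transcripts that the rule takes are counted but not reported here. The genes and lists were chosen with earlier results of these data known. Python 3.11.15, scipy 1.17.1 and matplotlib 3.10.9 were used.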

Additional observations from a re-analysis of the deposited data

How the results depend on the processing

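The count of entries at least 2-fold higher was 7 for Mettl3 and 10 for Zfp217, and the median log2 ratio of the entries at the level limit was 1.81 and 1.45. These rested on transcripts with little or no input: without inputs at 0 or under 0.01 FPKM the counts were 2 and 4 and the medians 0.61 and 0.91. With both values at least 1 FPKM and plain ratios they were 1 and 3, with medians of 0.65 and 1.31. Among protein-coding transcripts the counts were 4 and 5, and the Zfp217 median 2.42. With no filter on low values the Mettl3 count was 13, and the medians were 1.25 and 1.23. With a pseudocount of 0.1 FPKM the medians were 4.45 and 2.10, and with 1 transcript per gene 1.90 and 1.59. At 3-fold the Zfp217 count was 6. The other counts stayed within 1.5 times, and the Mettl3 median among protein-coding transcripts was the same. Of the 37 single ratios, whose sign the selection of the tables fixes, with a pseudocount of 0.1 FPKM 27 moved beyond the counting interval of the RIP value, and as plain ratios 6 of 15 did. No paired analysis was possible because each group had 1 library, and for the same reason no library could be left out. At the depth of these libraries, entries with few input reads, such as Eno1-204, Ldha-207 and Gapdh-206, have intervals too wide to tell a ratio of 1 from a large one.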

Other observations

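Genes that bring glucose into the cell and carry pyruvate onward were also listed. The glucose transporter Slc2a1 was at 60.5 FPKM in the Mettl3 RIP against 38.7 in the input (1.57-fold), and at 67.4 FPKM in the Zfp217 RIP against 39.1 in the input (1.72-fold). The list of glucose and lactate transport and regulators had 11 of 21 genes listed for Mettl3 and 9 for Zfp217. Of its transcripts at the level limit, 4 of 12 and 2 of 8 were at least 2-fold higher, against 51.1% of all Mettl3 and 49.1% of all Zfp217 transcripts at that limit. With an input of at least 0.01 FPKM these were 1 of 9 and 1 of 7, against 37.6% and 28.4%. The transcription factor Arnt, a partner of Hif1a, had the highest Mettl3 ratio with both values at least 1 FPKM, 2.79-fold, and Trp53 the highest Zfp217 ratio, 3.86-fold (8.53 FPKM in the RIP, 2.21 in the input).

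The list of pyruvate entry had 9 of 21 genes listed for Mettl3 and 7 for Zfp217. At the level limit 3 of 8 and 2 of 7 transcripts were at least 2-fold higher, against the same 51.1% and 49.1%. With an input of at least 0.01 FPKM these were 2 of 7 and 2 of 7, against 37.6% and 28.4%. Pdk3, a kinase that inhibits pyruvate dehydrogenase, was at 8.09 FPKM in the Mettl3 RIP against 2.94 in the input (2.75-fold). Its phosphatase counterpart Pdp2 was at 5.24 FPKM in the Mettl3 RIP and 2.17 FPKM in the input (2.41-fold). Dld was 1.63-fold higher in the Mettl3 RIP and 2.75-fold in the Zfp217 RIP. Mpc1, a subunit of the mitochondrial pyruvate carrier, was listed through a different transcript for each antibody. One was 2.53-fold higher in the Zfp217 RIP. The other was at 2.21 FPKM in the Mettl3 RIP against 0.195 in the input (11.3-fold). That input was below the 0.422 FPKM of Ldha-207, and no interval is given, so the precision of this ratio is not known. The pentose phosphate pathway had 5 of 11 genes listed for Mettl3 and 1, H6pd, for Zfp217. Prps2, which makes the ribose donor of nucleotides, was at 11.4 FPKM in the Mettl3 RIP against 4.19 in the input (2.72-fold). Of the list of tissue-restricted copies and side enzymes of glycolysis, 4 of 11 genes were listed for Mettl3 and 2 for Zfp217. None of 3 and none of 2 transcripts at the level limit met the rule. All of these had an input of at least 0.01 FPKM, and the shares over all such transcripts were 37.6% and 28.4%. The ADP-dependent glucokinase Adpgk was 1.91-fold and 1.74-fold higher.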
